A study of Mus musculus with 2 samples.

Results

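Genes that respond to low oxygen without belonging to glycolysis were followed in single cells of mouse lung: Hilpda, Bnip3, Bnip3l, Ankrd37, Ndrg1, Pdk1, P4ha1, Higd1a, Ddit4 and Kdm3a. They were found by their symbols in the gene list of both libraries, as 10 of 31053 genes, and each had counts in both. The libraries came from NG2tdT mice, in which the NG2 (Cspg4) promoter drives a tamoxifen-inducible Cre (the NG2-CreERTM line) and recombination of the Ai14 allele marks the cells and their descendants with tdTomato. Per the labels the mice received 2 mg tamoxifen per 30 g body weight and rested for 7 days, the Hypoxia mice were then kept at an FiO2 of 10% for 21 days while the Normoxia mice had no treatment, and tdTomato-positive lung cells were sorted. The study's methods describe male mice aged 2 to 4 months, and its text 3 wild-type animals for a single-cell experiment, but neither ties these to the libraries used here. The labels mention 3 replicates. There was 1 library per condition, so no test between conditions was possible, and every difference below is between these 2 libraries.

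Cells answer a fall in oxygen through the hypoxia-inducible factors (HIF). In normal oxygen, prolyl hydroxylases mark the HIF-1α and HIF-2α subunits for degradation, and in low oxygen the subunits persist, pair with ARNT and bind a short core motif in the regulatory DNA of their target genes. The best known targets are the glycolytic enzymes, but others remodel mitochondria, lipid droplets, collagen and growth signalling. In the lung, HIF-2α is abundant in capillary endothelium, and chronic hypoxia is a standard way to raise pulmonary pressure in mice.

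Promoter sequence is shown because the genes are grouped as targets of factors that read a core motif. RefSeq entries (build GRCm38.p6) were matched for 8 of the 10 genes, and Bnip3l and Ndrg1 had none. The 250 bases before each start were searched on both strands for ACGTG and for GCGTG, the letters of the HIF core. These motifs overlap when they sit in CACGTG, which counts as a match on each strand. All 8 genes had a match in at least 1 of their windows, in 8 of 12 windows, whereas 38.6% of 32851 windows of all genes had one. The median GC content was 65.8% in the windows of the 8 genes and 52.4% in all windows, and the motif letters are rich in C and G. In the stretches below, written 5′ to 3′ on the gene's strand, capitals mark the match (CACGT and CACGC are matches on the opposite strand).
Hilpda, chr6:29272571-29272599, plus strand, match 43 bases before the RefSeq start: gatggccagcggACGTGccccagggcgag
Bnip3, chr7:138909597-138909625, minus strand, match 107 bases before: cgcacgcgccgcACGTGccacacgctccc
Ankrd37, chr8:46000075-46000100, minus strand, match 241 bases before: cccagcagtACGTGcctagctcggct
P4ha1, chr10:59323268-59323295, plus strand, match 16 bases before: tgtgacagagcgCACGTagcgagggctg
Ddit4, chr10:59951941-59951969, minus strand, match 187 bases before: agaacgttgcgaACGTGcgcccggtgcct
Pdk1, chr2:71873134-71873162, plus strand, match 78 bases before: ccgcctacatggGCGTGtctttaaccagg
Higd1a, chr9:121857850-121857878, minus strand, match 70 bases before: ccggtctagcctGCGTGcgtggcgttcgc
Kdm3a, chr6:71632928-71632956, minus strand, match 27 bases before: ccgggaggctgtGCGTGtcttgtgagaga

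The Bnip3 promoter held the most matches, 5 in the 237 bases upstream of the annotated gene, and is shown whole. In it 1 CACGTG gave a match on each strand. At least 4 matches were found in 2.58% of all windows of 250 bases, and Ankrd37, with 4, also reached that number. Bnip3 was picked as the highest of 12 windows, so this share does not measure how unusual it is.
Bnip3, chr7:138909520-138909756, minus strand: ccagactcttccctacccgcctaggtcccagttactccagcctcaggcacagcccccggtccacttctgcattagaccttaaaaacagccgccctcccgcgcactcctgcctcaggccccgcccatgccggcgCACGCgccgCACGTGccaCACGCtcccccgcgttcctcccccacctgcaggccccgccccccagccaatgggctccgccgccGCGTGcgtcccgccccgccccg
The P4ha1 window, with 3 matches, is given for comparison.
P4ha1, chr10:59323046-59323295, plus strand: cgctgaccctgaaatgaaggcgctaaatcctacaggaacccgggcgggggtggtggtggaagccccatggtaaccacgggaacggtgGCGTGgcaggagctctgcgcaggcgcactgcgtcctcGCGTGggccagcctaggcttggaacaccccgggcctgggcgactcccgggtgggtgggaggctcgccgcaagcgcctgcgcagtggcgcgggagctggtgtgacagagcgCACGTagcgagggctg
The genes themselves, all protein-coding, lie at chr6:29272488-29275446 (Hilpda), chr7:138890836-138909519 (Bnip3), chr14:66985239-67008877 (Bnip3l), chr8:45996902-46005707 (Ankrd37), chr15:66929318-66969640 (Ndrg1), chr2:71873224-71903858 (Pdk1), chr10:59323296-59373304 (P4ha1), chr9:121848563-121858362 (Higd1a), chr10:59949669-59951834 (Ddit4) and chr6:71588972-71632990 (Kdm3a) in the GENCODE M21 annotation of GRCm38. The stretches shown for Hilpda, Ankrd37, Higd1a and Kdm3a fall inside these spans, since the RefSeq start used lies downstream of the outermost annotated start, and the others lie before the gene. Matching letters describe the sequence only and do not show that a factor binds there.

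The genes were read first in endothelial cells, the class with the most cells in both libraries. Each unique molecular identifier (UMI) stands for 1 captured transcript end, so levels can be set side by side between genes without dividing by length, and they are given as a gene's UMIs scaled to a common total of all UMIs of its group (CPM, counts per 1000000), with a 95% interval that covers counting error only. Where a pair of values is given, Normoxia comes first. After filtering, 293 Normoxia and 453 Hypoxia cells remained, with a median of 3135 and 2818 UMIs. By their markers 3 clusters were named endothelial cell-like, with 94 Normoxia and 196 Hypoxia cells. A cluster led by Scgb1a1 and one led by Ccl21a also carried most endothelial markers, but stayed unnamed because their 10 leading genes held more markers of another class (club cell or lymphatic) than of endothelium. In the endothelial cell-like cells, all 11 endothelial markers were detected in both libraries, with a summed level of 24524 and 19323 CPM. The leukocyte gene Ptprc was found in 0 of 94 of these cells, which allows a share of up to 3.19%, and in 5 of 196. The erythroid list had 5 of 5 genes detected in Normoxia and 4 of 5 in Hypoxia endothelium (591 and 225 CPM), the club cell list 3 and 4 of 5 (102 and 190 CPM) and the fibroblast list 8 and 7 of 10 (122 and 32.1 CPM), and their part in the results was not tested. By Cspg4, with a UMI in 1 Normoxia and 2 Hypoxia cells, the sorted population named in the labels was not recognisable. No cluster was named pericyte-like. Of other pericyte markers, Pdgfrb had a UMI in 27 Normoxia and 10 Hypoxia cells, Cox4i2 in 12 and 4, and Higd1b in 4 and 4. An unnamed cluster led by Hhip held 45 Normoxia and 6 Hypoxia cells. The pericyte markers Rgs5 and Kcnj8 and the smooth muscle markers Acta2 and Tagln were among its leading genes. The 10 genes took no part in the clustering. The endothelial clusters were unequally shared between the libraries. Cluster 1, led by Plvap and Sox11, held 63 Normoxia and 77 Hypoxia cells, cluster 2, led by Ntrk2, held 12 and 99, and cluster 7, led by Car4, held 19 and 20.

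Over the endothelial cell-like cells, 5 of the 8 genes with at least 20 UMIs were at least 1.5-fold higher in the Hypoxia library and 1 was lower. Bnip3, Ankrd37, Ndrg1, P4ha1 and Ddit4 were higher, Hilpda was lower, Bnip3l and Higd1a stayed between the limits, and Pdk1 and Kdm3a had too few UMIs. Of all 6128 genes with that many UMIs, 15.2% were higher and 14.5% lower by the same measure. These shares also apply to the gene lists counted in these cells below. The median log2 ratio of Hypoxia over Normoxia was 1.15 for the 8 genes and -0.01 for all genes. None of the 5 higher genes reached 20 UMIs in Normoxia, where they had 2 to 11, so they passed the minimum through the Hypoxia library. Their inclusion and direction are not independent, and the count and the median describe these genes without supporting a direction. Without cluster 2, most of whose cells came from Hypoxia, 5 genes reached 20 UMIs, 2 of them (Bnip3 and Ndrg1) were higher and 1 lower, against 12.6% and 14.6% of all genes, while the ratios of P4ha1 and Ddit4 were 2.54 each on 18 UMIs. In the clusters taken alone, 2 of 5 genes that passed were higher and 1 lower in cluster 1 (against 12.9% and 15.9% of all genes), 3 of 6 and 2 in cluster 2 (29.7% and 21.7%), and 2 of 4 and 1 in cluster 7 (16.3% and 15.9%). With equal weight per cell the ratio of Ndrg1 was -0.24.

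**Figure D1:**
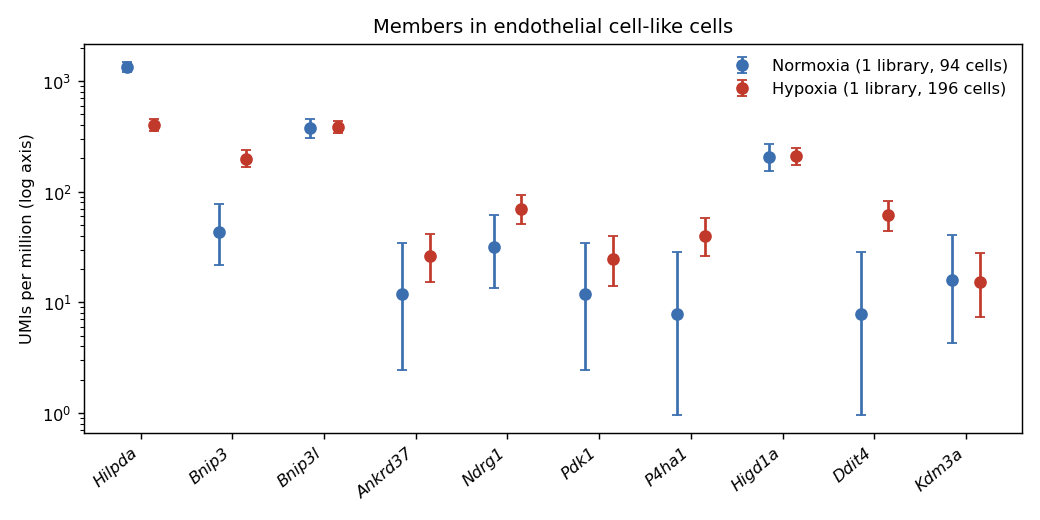
Level of each gene in endothelial cell-like cells of the Normoxia (blue, 94 cells) and Hypoxia (red, 196 cells) library, in CPM on a log axis, with 95% Poisson intervals. The intervals of Hilpda, Bnip3 and Ddit4 do not overlap between the libraries, and those of Bnip3l and Higd1a lie at the same height.

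Hilpda, whose product sits on lipid droplets and restrains the triglyceride lipase Pnpla2 (ATGL), was the most abundant of the 10 genes in Normoxia endothelium and the 1 gene that was lower in Hypoxia, where its level lay within counting error of that of Bnip3l. It had 342 UMIs in Normoxia, or 1348 CPM (1209 to 1498), and 262 UMIs in Hypoxia, or 401 CPM (354 to 452). The Normoxia level was thus 3.36-fold the Hypoxia level, a log2 ratio of -1.75 (-1.99 to -1.51). Of the cells, 80 of 94 (85.1%) in Normoxia and 106 of 196 (54.1%) in Hypoxia held a Hilpda UMI, with up to 23 and 10 UMIs in 1 cell. After every cell was thinned to 1000 UMIs, which takes depth out of the comparison and left out 4 and 7 shallower cells, the shares were 70.0% and 34.4%, a difference of -35.6 points (-46.2 to -23.3). The lower level was seen within each endothelial cluster. Cluster 1 gave -1.55 (-1.89 to -1.22), cluster 2 gave -2.16 (-2.62 to -1.69), and the Car4-led cluster 7 gave -1.75 (-2.56 to -1.0). B cell-like cells were taken for comparison, and whether their UMIs were expression or free RNA was not tested. Before thinning, a Hilpda UMI was present in 3 of 31 cells of the Normoxia and 2 of 54 of the Hypoxia library, at median depths of 4114 and 1862 UMIs. After thinning it was present in 0 of 31 and 0 of 53, which allows shares of up to 9.68% and 5.66%.

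The lipid droplet genes around Hilpda differed among themselves. Of 9 listed genes 6 had at least 20 UMIs, 2 were higher and 1 lower, with a median log2 ratio of 0.22. Pnpla2 itself had 181 and 105 CPM, a ratio of -0.78 (-1.34 to -0.21), so it was lower together with Hilpda. Mgll, a monoglyceride lipase, was higher (244 and 445 CPM, ratio 0.86, 0.47 to 1.28), whereas the droplet coat gene Plin2 had 86.7 and 93.3 CPM (0.11, -0.62 to 0.88). Lipe, the hormone-sensitive lipase, had 63.0 and 109 CPM (0.78, -0.01 to 1.67).

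Bnip3 and Bnip3l encode related receptors that mark mitochondria for autophagy, and they parted in the endothelium. Bnip3 had 11 UMIs in Normoxia, or 43.3 CPM (21.6 to 77.6), and 130 UMIs in Hypoxia, or 199 CPM (166 to 236). The Hypoxia level was 4.59-fold the Normoxia level, a log2 ratio of 2.20 (1.31 to 3.23), and the ratio was 2.36 (1.12 to 3.88), 2.58 (0.05 to 7.91) and 2.23 (0.70 to 4.21) in clusters 1, 2 and 7. Cells with a Bnip3 UMI made up 8.51% and 37.2%, and 3.33% and 14.3% after thinning, a difference of 10.95 points (3.57 to 17.1), while thinned B cell-like cells held it in 0 of 31 and 2 of 53. That difference moved with the thinning depth, to 3.95 points (-2.49 to 8.91) at 500 UMIs and 27.2 points (16.6 to 35.6) at 2000. Bnip3l had 95 and 254 UMIs, or 374 CPM (303 to 458) and 388 CPM (342 to 439), a ratio of 0.05 (-0.29 to 0.41). Its interval leaves room for a difference of less than 1.5-fold in either direction. In Normoxia endothelium Bnip3l therefore stood well above Bnip3, and in Hypoxia the gap was narrower.

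The autophagy partners of both receptors were counted as a list. Of 14 listed genes, 12 had at least 20 UMIs, 0 were higher, 1 was lower, and the median log2 ratio was -0.24. Of all genes 15.2% were higher and 14.5% lower, so counts this small do not set the list apart. The lower gene was Pink1, a kinase of a separate mitophagy route, at 90.6 and 56.6 CPM (-0.68, -1.47 to 0.14). That interval includes no difference. Map1lc3a (560 and 460 CPM, ratio -0.28), Gabarap (461 and 457 CPM, ratio -0.01) and Gabarapl2 (406 and 339 CPM, ratio -0.26) encode the membrane proteins that such receptors bind. Map1lc3b, of the same family, had 540 and 384 CPM, a ratio of -0.49 (-0.80 to -0.18), short of the limit.

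Ddit4 (REDD1), an inhibitor of the growth kinase complex mTORC1, had the widest ratio among the genes that were higher, but on few Normoxia counts. It had 2 UMIs in Normoxia, or 7.88 CPM (0.95 to 28.5), and 40 in Hypoxia, or 61.2 CPM (43.7 to 83.3), a ratio of 7.76-fold and 2.96 (1.01 to 6.05) on the log2 scale. The Hypoxia UMIs were spread over 32 of 196 cells with at most 4 in a cell. After thinning, 0 of 90 Normoxia cells, which allows a share of up to 3.33%, and 16 of 189 Hypoxia cells (8.47%) held a UMI, but the interval of the difference included 0 at 500 and at 2000 UMIs. The glucocorticoid-induced genes, which respond to a stimulus that also acts on Ddit4, were mixed: of 5 with at least 20 UMIs, 1 was higher (Per1, 31.5 and 55.0 CPM) and 1 lower (Dusp1, 575 and 362 CPM, -0.67, -0.97 to -0.36), with a median of -0.17. Tsc22d3 had 362 and 393 CPM.

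P4ha1, a catalytic subunit of the collagen prolyl 4-hydroxylase, had 2 UMIs in Normoxia (7.88 CPM, 0.95 to 28.5) and 26 in Hypoxia (39.8 CPM, 26.0 to 58.2), a ratio of 2.33 (0.34 to 5.45). The share of cells with a P4ha1 UMI was 2.13% and 11.7% at full depth, but 2 of 90 and 4 of 189 cells after thinning, where no difference could be seen at this depth. Of the 9 genes listed as its partners in collagen processing, 6 had at least 20 UMIs, 2 were higher (Plod1 and Crtap, on 4 Normoxia UMIs each) and 0 lower, with a median of 0.32. P4hb, the other subunit of the enzyme, had 102 and 122 CPM (0.26, -0.40 to 0.95), and the collagen chaperone Serpinh1 had 339 and 425 CPM (0.33, -0.03 to 0.69).

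Ndrg1, a stress-responsive gene linked to differentiation, had 8 UMIs in Normoxia, or 31.5 CPM (13.6 to 62.1), and 46 in Hypoxia, or 70.3 CPM (51.5 to 93.8), a ratio of 1.16 (0.06 to 2.45). Its counts were uneven between clusters, since the Car4-led cluster 7 had 1 UMI in each library and cluster 2 of the Hypoxia library 29. Thinned cells gave 0 of 90 in Normoxia and 11 of 189 in Hypoxia (5.82%), and 0 of 31 and 0 of 53 among B cell-like cells, and at 500 UMIs the interval of the difference included 0. Ankrd37, an ankyrin-repeat protein known mainly as a HIF target, had 3 and 17 UMIs, or 11.8 and 26.0 CPM, and the interval of its ratio, 1.14 (-0.65 to 3.55), includes no difference. It reached 20 UMIs by the narrowest margin, and without the cells marked as doublets it had 19.

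Mitochondrial genes followed. Higd1a, a small protein that associates with respiratory chain complexes, had 52 and 137 UMIs, or 205 CPM (153 to 269) and 209 CPM (176 to 248), a ratio of 0.03 (-0.44 to 0.52), and thinned shares of 14.4% and 14.3%. Pdk1, the kinase that switches off pyruvate dehydrogenase, had 3 and 16 UMIs, or 11.8 CPM (2.44 to 34.5) and 24.5 CPM (14.0 to 39.7), just under the minimum. Of 6 genes of its target, the pyruvate dehydrogenase complex, and of pyruvate import with at least 20 UMIs, 0 were higher and 2 lower, with a median of -0.32. The lower genes were Pdha1, a catalytic subunit, at 82.8 and 44.3 CPM (-0.90, -1.76 to -0.02), and Dlat, another subunit, at 51.2 and 32.1 CPM (-0.67, -1.74 to 0.45). Kdm3a, a demethylase of histone H3 that needs oxygen, had 4 and 10 UMIs, or 15.8 and 15.3 CPM, too few to place.

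How many of the genes a single cell showed was also compared at 1000 UMIs per cell. Over all 10 genes, the cells without any came to 19 of 90 in the Normoxia library (21.1%, exact interval 13.2 to 31.0%) and 38 of 189 in the Hypoxia library (20.1%, 14.6 to 26.5%), and at least 2 were seen in 37.8% (27.8 to 48.6%) and 34.9% (28.1 to 42.2%). Both intervals overlap between the libraries. Leaving out Hilpda, a choice made because it was lower in Hypoxia, the cells without any of the other 9 genes came to 52 in the Normoxia library (57.8%, 46.9 to 68.1%) and 66 in the Hypoxia library (34.9%, 28.1 to 42.2%), and at least 2 were seen in 11.1% (5.46 to 19.5%) and 20.1% (14.6 to 26.5%). The 9-gene values are a description only, since their direction follows in part from that choice. The cells of a library share their source, so these intervals do not speak to the conditions.

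**Figure D2:**
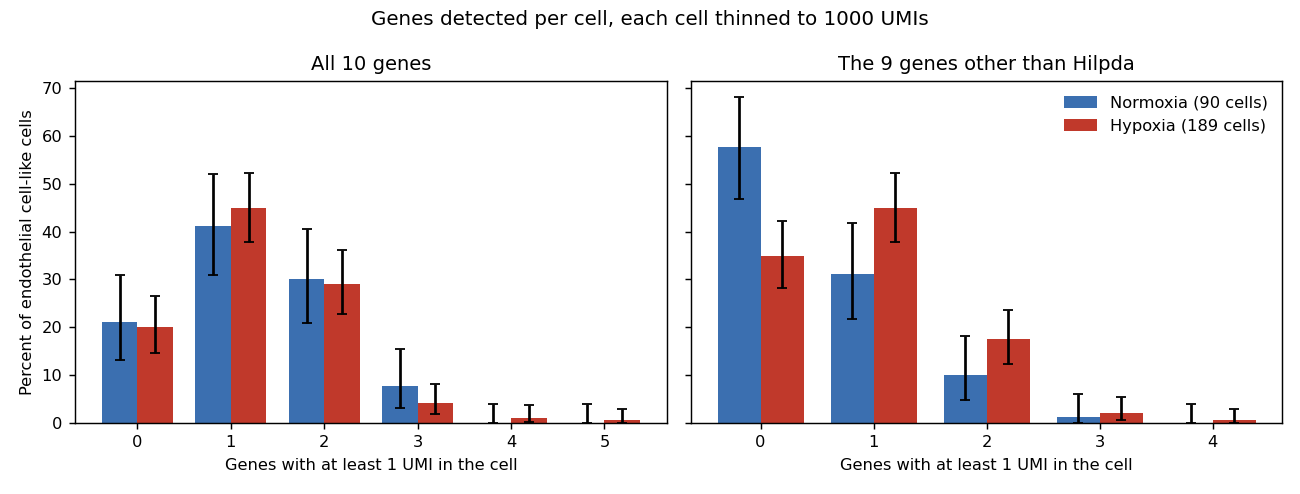
Percent of endothelial cell-like cells by the number of genes with at least 1 UMI after thinning to 1000 UMIs per cell, out of all 10 genes (left) and of the 9 other than Hilpda (right). Bars show Normoxia (blue, 90 cells) and Hypoxia (red, 189 cells) with exact binomial 95% intervals, and cells with none make up 21.1% and 20.1% on the left and 57.8% and 34.9% on the right.

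Endothelial cells were then split by Car4, a carbonic anhydrase that marks the large, flat capillary cells at the gas exchange surface. A Car4 UMI was found in 45 Normoxia and 75 Hypoxia endothelial cells, and 49 and 121 had none. Of the cells with a Car4 UMI, 19 and 20 lay in the Car4-led cluster, and 9 and 29 held only 1 Car4 UMI. The Car4-positive subset is therefore broader than that cluster, and its make-up differed between the libraries. In the Car4-positive cells 6 of the 10 genes had at least 20 UMIs, 3 were higher (Bnip3, Ndrg1 and Ddit4) and 1 lower (Hilpda), against 16.8% and 16.7% of all genes tested. The 3 higher genes had 1 to 9 UMIs in Normoxia and again passed through the Hypoxia library. In the Car4-negative cells 5 genes passed, 1 was higher (Bnip3, with 2 Normoxia UMIs) and 1 lower (Hilpda), against 15.5% and 17.5%. The depth was lower there, at a median of 2208 and 2551 UMIs per cell against 2787 and 3419 in the Car4-positive cells.

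Hilpda differed between the subsets beyond counting error in Hypoxia, while in Normoxia the interval included no difference. In Normoxia it had 1286 CPM (1108 to 1486) in Car4-positive and 1428 CPM (1213 to 1669) in Car4-negative cells, a log2 ratio of -0.15 (-0.47 to 0.17). In Hypoxia the levels were 293 CPM (237 to 359) and 506 CPM (432 to 588), a ratio of -0.79 (-1.16 to -0.41), so that the Car4-positive cells had the lower level. Hypoxia over Normoxia was -2.13 (-2.50 to -1.77) in Car4-positive and -1.50 (-1.82 to -1.17) in Car4-negative cells, and the difference between these ratios was not tested. When the subset was set by the Car4-led cluster in place of the Car4 UMI, Hilpda was the lower in that cluster in both libraries, at 859 against 1497 CPM in Normoxia and 254 against 422 CPM in Hypoxia. The pattern within Normoxia therefore depended on how the subset was drawn. In the endothelial clusters not led by Car4, 7 genes passed, 4 were higher and 1 lower, against 15.8% and 15.1% of all genes.

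Bnip3 was present in both subsets. Car4-positive cells had 9 UMIs (62.6 CPM) in the Normoxia and 71 (219 CPM) in the Hypoxia library, with a ratio of 1.81 (0.80 to 3.00). Car4-negative cells had 2 UMIs (18.2 CPM) and 59 (179 CPM), a ratio of 3.30 (1.38 to 6.37). Within Hypoxia the subsets were 0.30 apart on the log2 scale (-0.22 to 0.82), and the Car4-led cluster, at 315 CPM, was 1.73-fold the other endothelial clusters, at 182 CPM (log2 ratio 0.79, 0.11 to 1.42). Ddit4 had 1 and 24 UMIs in Car4-positive cells (3.41, 0.80 to 8.78) and 1 and 16 in Car4-negative cells. Ndrg1 had 2 and 21 UMIs in Car4-positive cells (2.22, 0.19 to 5.36) and 6 and 25 in Car4-negative cells (0.47, -0.85 to 2.05). Bnip3l had ratios of -0.02 (-0.50 to 0.48) in Car4-positive and 0.11 (-0.40 to 0.64) in Car4-negative cells. Higd1a had 0.11 (-0.57 to 0.82) and -0.08 (-0.74 to 0.63). These intervals include no difference, and all but that of Bnip3l in Car4-positive cells reach past 1.5-fold. In single clusters, Bnip3l was called lower in cluster 2 (-0.62, -1.32 to 0.16) and Higd1a higher in cluster 7 (0.75, -0.72 to 2.41). Both intervals include no difference. Car4 itself was lower in Hypoxia endothelium, 1816 and 888 CPM (-1.03, -1.21 to -0.85), as were 4 of the other 9 capillary genes of its list (Fibin, Ednrb, Igfbp7 and Rprml), and its part in the subset results was not tested. The Car4-led cluster held 19 of 94 Normoxia and 20 of 196 Hypoxia endothelial cells. Car4 had 6296 and 5368 CPM within that cluster, and 448 and 241 CPM in the other endothelial clusters. The part of this mixture in the lower Car4 level was not tested.

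**Figure D3:**
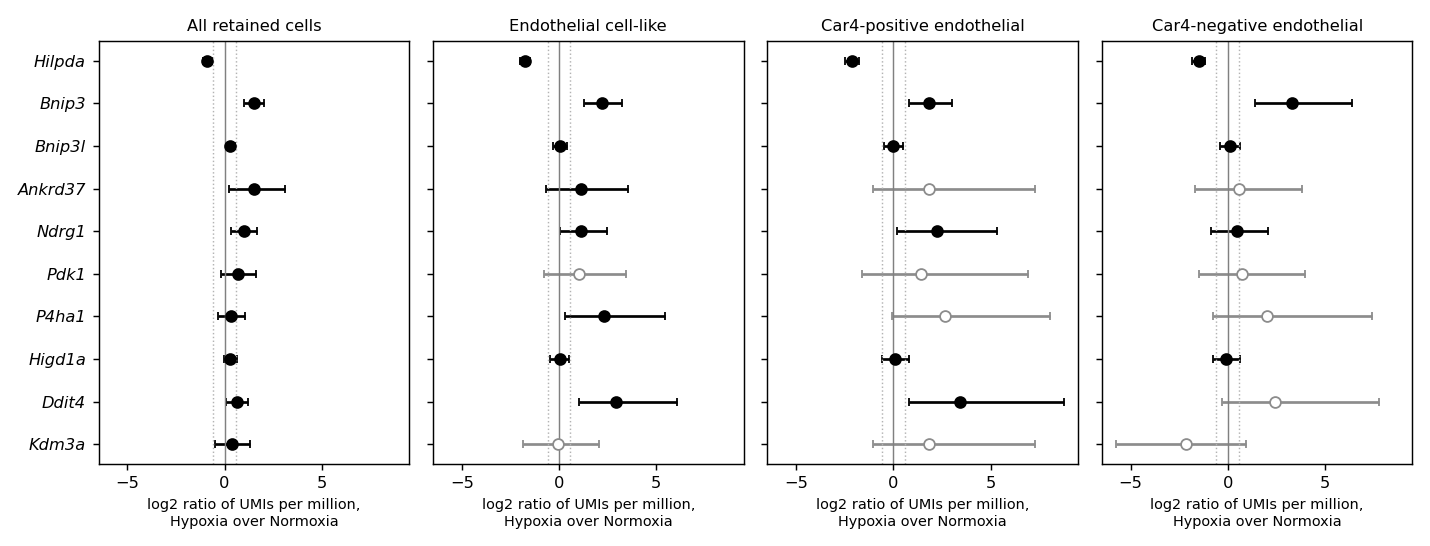
Log2 ratio of Hypoxia over Normoxia (horizontal axis) of the 10 genes in all retained cells, endothelial cell-like cells and the Car4-positive and Car4-negative subsets, with exact 95% counting intervals. Filled points have at least 20 UMIs, open grey points fewer, and dotted lines mark 1.5-fold; Hilpda lies left of them and Bnip3 right of them in all 4 panels, and genes with 0 UMIs in a library are not drawn.

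Outside the endothelium the genes gave no common direction. In all cells that were not endothelial cell-like (199 and 257 cells), 9 genes had at least 20 UMIs, 3 were higher and 0 lower, against 15.1% and 22.3% of all genes, and all 3 (Ndrg1, Pdk1 and Kdm3a) had intervals that include no difference. Bnip3 had 28 and 27 UMIs there, 32.6 and 28.8 CPM, a ratio of -0.18 (-1.0 to 0.64). Over all retained cells 5 of the 10 genes were higher (Bnip3, Ankrd37, Ndrg1, Pdk1 and Ddit4) and Hilpda was lower, against 15.8% and 15.5% of all genes. Ankrd37 (6 and 25 UMIs) and Pdk1 (17 and 39 UMIs) passed the minimum through the Hypoxia library. The interval of the Pdk1 ratio, 0.68 (-0.17 to 1.60), includes no difference. At 2-fold, 2 were higher (Bnip3 and Ankrd37) and 0 lower, against 6.21% and 8.13%. Endothelial cell-like cells made up 32.1% of Normoxia and 43.3% of Hypoxia cells, so these pooled values also carry the mixture of cell types.

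Hilpda was 30.5-fold higher in endothelial cell-like than in all other cells of the Normoxia library and 11.1-fold higher in the Hypoxia library. Among named classes of at least 20 cells the next in Normoxia was fibroblast-like, at 22.5 CPM (7.32 to 52.6), and its interval overlapped that of B cell-like cells at 20.4 CPM. The 13 T or NK cell-like cells of Normoxia had 4 UMIs. Bnip3 was 1.33-fold apart from other cells in Normoxia (log2 0.41, -0.74 to 1.46) and 6.91-fold higher in endothelium in Hypoxia (2.79, 2.18 to 3.44). In Hypoxia the neutrophil-like cells, 28 cells with a median of 690.5 UMIs, had 156 CPM of Bnip3 on 4 UMIs, an interval (42.6 to 400 CPM) that overlaps the endothelial one. Bnip3l was 2.09-fold and 1.99-fold higher in endothelium than in other cells, and Higd1a 2.26-fold and 2.14-fold. In the Hhip-led cluster the 45 Normoxia cells had 113 CPM of Bnip3 (64.4 to 183) on 16 UMIs. Bnip3l and Higd1a were detected in every named class with at least 20 cells.

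Other genes had their highest level elsewhere. P4ha1 was highest in fibroblast-like cells, cells that make collagen, at 58.6 CPM (31.2 to 100) in Normoxia and 61.7 CPM (22.6 to 134) in Hypoxia, where its interval overlapped that of endothelium. Ndrg1 was also highest there among the named classes, at 40.6 and 113 CPM, on 9 and 11 UMIs, with intervals that overlap the endothelial ones. Its ratio of 1.48 (0.07 to 2.93) made Ndrg1 the 1 higher gene of 3 that passed in fibroblast-like cells, where 14.6% of all genes were higher and 22.1% lower. Pdk1 and Kdm3a were highest in T or NK cell-like cells of the Hypoxia library, at 53.3 CPM (29.1 to 89.4) and 38 CPM (18.2 to 70.0), with intervals overlapping those of the next class. Of 3 genes that passed in these cells 0 were higher and Pdk1 was lower than in Normoxia, where it had 117 CPM on 7 UMIs, 5 of them in 1 cell, against 17.8% and 20.9% of all genes.

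Macrophage or monocyte-like cells (28 and 45 cells) departed from the endothelium in Bnip3l. Bnip3l had 13 UMIs, or 108 CPM (57.7 to 185), in Normoxia and 69 UMIs, or 263 CPM (204 to 333), in Hypoxia, a ratio of 1.28 (0.41 to 2.26), and was the 1 higher gene of 2 that passed, against 25.4% of all genes higher and 14.3% lower. Ddit4 had 10 UMIs in 4 Normoxia cells and 4 UMIs in 3 Hypoxia cells, or 83.4 and 15.2 CPM. Bnip3 had 0 and 2 UMIs, where 0 allows up to 25 CPM. The class held different clusters in the libraries, since 19 of its 28 Normoxia cells lay in a Retnla-led cluster with 10 Hypoxia cells and 15 of its 45 Hypoxia cells formed a Chil3-led cluster with 0 Normoxia cells.

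**Figure D4:**
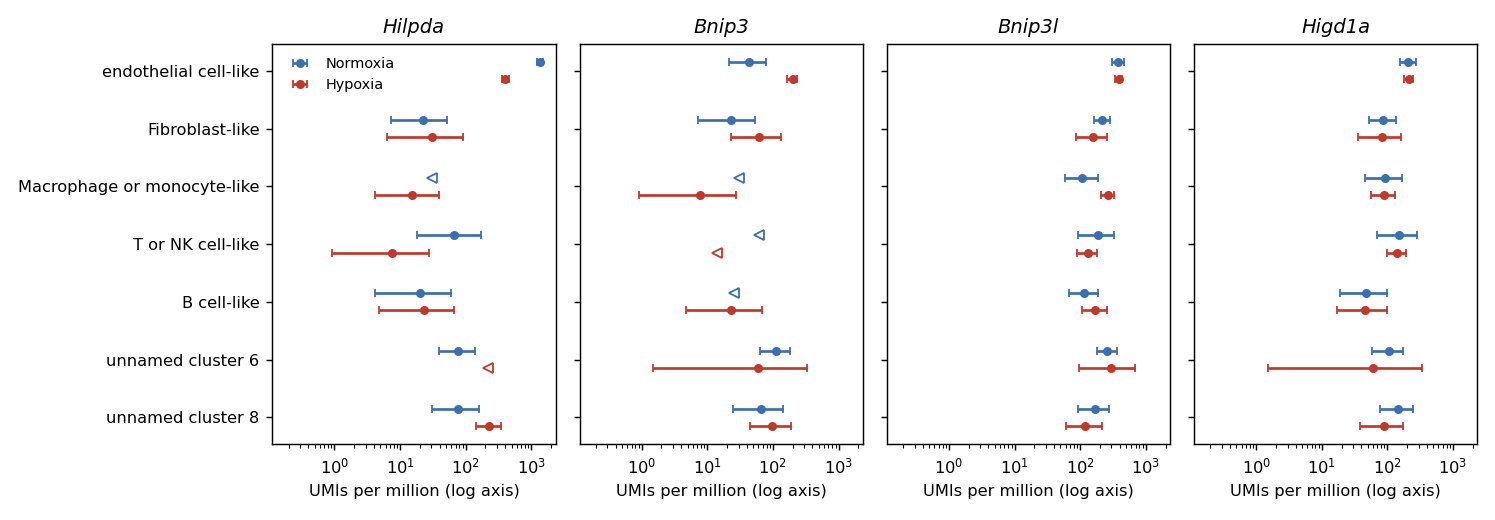
Level of Hilpda, Bnip3, Bnip3l and Higd1a (CPM, shared log axis) by cell class in Normoxia (blue) and Hypoxia (red), with 95% Poisson intervals. The unnamed clusters 6 (led by Hhip) and 8 (led by Scgb1a1) have a row each. Open triangles mark classes with 0 UMIs, at the upper bound of the interval. Hilpda stands apart in endothelial cell-like cells in both libraries. Neutrophil-like cells are not drawn, and their Bnip3 interval in Hypoxia (42.6 to 400 CPM) overlaps the endothelial one (166 to 236 CPM).

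An unnamed cluster of 19 Normoxia and 16 Hypoxia cells, led by the club cell gene Scgb1a1 but with 10 of the 11 endothelial markers, had the reverse pattern for Hilpda. It had 7 UMIs in Normoxia, or 77.6 CPM (31.2 to 160), and 21 in Hypoxia, or 230 CPM (142 to 351), a ratio of 1.57 (0.28 to 3.04). Its Normoxia level was far below that of the named endothelial clusters. Of 3 genes that passed there 1 was higher and 1 lower (Higd1a, 144 and 87.5 CPM, -0.72, -2.20 to 0.66), against 18.3% and 28.2% of all genes. Counted as endothelial, the cluster brought the endothelial Hilpda ratio to -1.42. Scgb1a1 was also found in 20.5% of Normoxia and 37.7% of Hypoxia lymphocyte-like cells (B, T or NK), and in 20.2% and 40.8% of endothelial cell-like cells, and the part of free RNA in this cluster was not tested. Wfdc2, Krt19 and Vwf were also among its leading genes. Markers were scored per cluster and not per cell, and the part of a mixture of cell types in its Hilpda ratio was not tested.

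The rest of the pathway was read in the endothelium from listed genes, with log2 ratios and their intervals in brackets. Genes were named when they had the most UMIs or passed 1.5-fold with an interval that left out no difference. Of all genes with at least 20 UMIs in these cells, 15.2% were higher and 14.5% lower. A gene with few Normoxia UMIs can pass that minimum through the Hypoxia library, so the counts and medians only describe the lists. Glycolysis and glucose transport had 13 of 19 genes with at least 20 UMIs, of which 6 were higher and 0 lower, with a median log2 ratio of 0.58. Aldoa had 536 and 1031 CPM (0.94, 0.68 to 1.22), Ldha 169 and 520 CPM (1.62, 1.16 to 2.11), Pfkl 43.3 and 173 CPM (2.00, 1.10 to 3.04), and Gapdh and Pkm had ratios of 0.91 each. The other HIF targets outside glycolysis had 12 of 30 genes with at least 20 UMIs, 6 higher and 1 lower (Ero1l, 35.5 and 16.8 CPM, -1.08, -2.48 to 0.37), with a median of 0.52. Over all retained cells 23 genes of this list passed, 2 higher and 9 lower, with a median of -0.21. Of all genes there 15.8% were higher and 15.5% lower, and the pooled values also carry the mixture of cell types. In the endothelium Mxi1, an antagonist of Myc, was higher (31.5 and 81.0 CPM, 1.36, 0.28 to 2.65), whereas Vegfa, the vascular growth factor, had 94.6 and 90.2 CPM (-0.07, -0.78 to 0.68).

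The genes of the oxygen sensor itself were counted in the same way. Of 5 with at least 20 UMIs 1 was higher (Egln1, an oxygen-sensing prolyl hydroxylase, 11.8 and 33.6 CPM, 1.51, -0.23 to 3.89) and 0 lower, with a median of -0.13. Epas1, which encodes HIF-2α, had 1966 and 1628 CPM (-0.27, -0.43 to -0.12), and Hif1a had 55.2 and 50.5 CPM (-0.13, -1.07 to 0.89). Of 4 paralogues of the 10 genes that passed, 0 were higher and 1, Ndrg3, was lower. Ndrg3 had 55.2 and 35.2 CPM (-0.65, -1.67 to 0.42), P4ha2 27.6 and 19.9 CPM (-0.47, -1.90 to 1.09), and Higd2a 162 and 173 CPM (0.10, -0.43 to 0.65).

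Genes that respond to tissue dissociation differed between the libraries in the same cells. Of 15 with at least 20 UMIs 1 was higher and 7 lower in Hypoxia, against 15.2% and 14.5% of all genes, with a median of -0.43. Atf3 had 154 and 15.3 CPM (-3.33, -4.50 to -2.30), Fos 209 and 74.9 CPM (-1.48, -2.07 to -0.89) and Jun 1655 and 905 CPM (-0.87, -1.05 to -0.69). Atf4 of the integrated stress response, which also acts on Ddit4, had 292 and 124 CPM (-1.24, -1.71 to -0.76), the direction opposite to that of Ddit4. Of the 8 general capillary genes 0 were higher and 1 lower, Plvap, which encodes the diaphragm protein of endothelial fenestrae, at 1529 and 240 CPM (-2.67, -2.95 to -2.40), in the same direction as Hilpda. Whether these shifts had a part in the Hilpda or Ddit4 result was not tested.

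**Figure D5:**
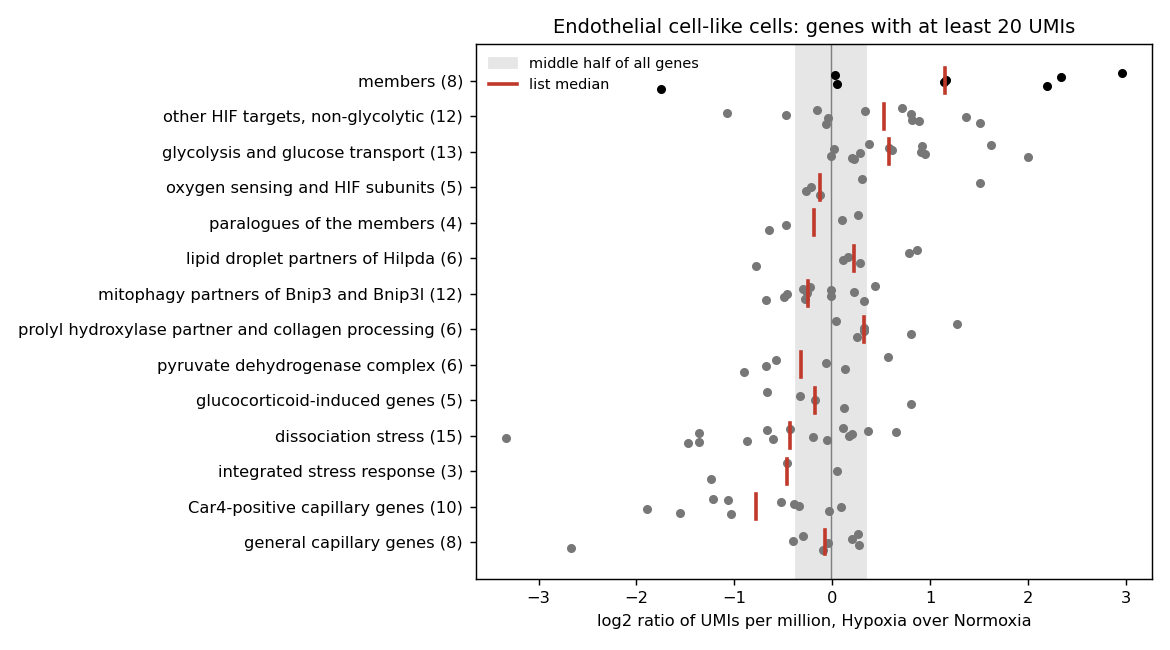
Log2 ratio of Hypoxia over Normoxia in endothelial cell-like cells for genes with at least 20 UMIs (numbers in brackets), 1 point per gene and 1 row per list. Red bars are list medians (1.15 for the 10 genes followed here, of which 8 passed), the grey band holds the middle part of all 6128 genes between their quartiles, and Hilpda is the black point at -1.75.

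The genes with the most similar levels over 10 groups (named class and library, at least 20 cells) were compared by Pearson correlation of log2(CPM + 10) among 4063 genes with at least 100 UMIs. For Hilpda these were Clec14a (r = 0.96), Aard (0.95) and Sox18 (0.95). For Bnip3 they were Prrc2a (0.90), Aldoa (0.89) and Rab6a (0.89), and for Bnip3l Cox7a2 (0.93), Lrp10 (0.90) and Arap3 (0.89). For Higd1a they were Dnm2, Ssu72 and Notch1, for Ndrg1 Rora, Eva1b and Rab2a, and for Ddit4 Cdc42se2, Jpt1 and Rpp21. The groups of a library share its depth and free RNA, so the values only describe these 10 groups.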

How the data were processed

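Single-cell libraries were made with Chromium Single Cell 3′ chemistry. The authors deposited unnormalised UMI counts per gene and barcode, and the headers name Cell Ranger 3.1.0. Submitters' notes name mm10 and Seurat. The study's methods describe whole lung depleted of leukocytes and epithelial cells and a later Cell Ranger version, so it is open whether they cover these files. The labels mention replicates, but 1 matrix per condition was analysed here.

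Barcodes with 200 to 6000 genes and at most 5% mitochondrial UMIs were kept, 293 of 373 and 453 of 613. The libraries held 1323874 and 1989423 UMIs, and 2 barcode sequences occurred in both. Cells were clustered with scanpy 1.11.5 (2000 variable genes without those of the followed genes, HIF target, glycolysis, oxygen sensing and Car4 lists, 15 components, 15 neighbours, Leiden resolution 1.0). A marker counted when 25% of a cluster's cells held it at 2 times the median CPM over clusters or more. Names needed at least 3 markers, no tie, and no other class ahead among the 10 leading genes by fold (in shallow clusters also an own marker there). This rule, set after earlier clusters had been seen, left 4 of 14 clusters unnamed. Scrublet marked 1 and 2 cells as doublets, which were kept.

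UMIs were summed per class and library. Intervals (Poisson, conditional binomial for ratios, Clopper-Pearson for shares, Newcombe for differences of shares) cover counting error only. A gene was called at 1.5-fold with at least 20 UMIs. For 0 UMIs or cells the limit is 3. The ratio and its interval were checked on independent Poisson counts simulated from the pooled sums of all retained cells. These counts held no spread between cells or libraries, so the check covers the formula only and not the differences reported here. The followed genes and lists, and the naming rule (all 10 genes; of other lists at most the 4 with most UMIs and those past 1.5-fold whose interval left out no difference; for similar levels the 3 highest correlations), were chosen with earlier results of these data known, and single genes outside the rule were named after their values were seen. Promoters came from RefSeq GRCm38.p6, and gene ends from GENCODE M21 (GRCm38, which is mm10).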

Additional observations from a re-analysis of the deposited data

Results flagged for a closer look

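Hilpda had opposite directions in 2 groups of cells whose clusters carried most endothelial markers. Its log2 ratio of Hypoxia over Normoxia was -1.75 in endothelial cell-like cells and 1.57 in the unnamed cluster led by Scgb1a1. In T or NK cell-like cells it was -3.13, also opposite to that cluster, on 4 and 2 UMIs, under the minimum of 20 for a call. Ddit4 had a ratio of -2.45 in macrophage or monocyte-like cells on 10 and 4 UMIs, of 2.96 in endothelial cell-like cells on 2 and 40 UMIs, and of 1.79 in the cluster led by Scgb1a1 on 4 and 14 UMIs. The first and last of these Ddit4 ratios also rest on fewer than 20 UMIs and were not called. These pairs stand here because their counting intervals lie on opposite sides of 0, and the differences between them were not tested.

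Higd1a was counted in the barcodes that the filters left out, which no comparison uses. It had 6 UMIs in 80 Normoxia barcodes and 37 in 160 Hypoxia barcodes, or 28.4 and 93.1 CPM, and it stands here because the counting interval of that ratio left out no difference. Without the barcodes in which haemoglobin took over 50% of the UMIs, it had 65.3 and 112 CPM, a log2 ratio of 0.78 (-0.48 to 2.31), which includes no difference.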

How the results depend on the processing

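No paired analysis was possible because each condition had 1 library, so no replicate could be left out either. Hilpda was lower in Hypoxia endothelium in each of 16 settings (-2.16 to -1.42) and Bnip3 higher (1.92 to 2.60), and the median over the genes that passed stayed positive (0.18 to 1.59). In the endothelial cells the higher genes had passed the minimum through the Hypoxia library, so the sign of that median supports no direction. The number of genes at least 1.5-fold higher was less stable. In endothelial cell-like cells it was 5, but 3 with equal weight per cell, 2 without the clusters mostly from 1 library, and 2, 3 and 2 in clusters 1, 2 and 7 alone. Ndrg1 had a ratio of -0.24 with equal weight per cell and -0.47 in cluster 7 alone (2 UMIs), and Ankrd37 one of -0.0501 in cluster 2 alone. In all retained cells the number was 5, but 3 with equal weight per cell and 2 at a limit of 2-fold. In Car4-positive cells it was 3, but 1 with a gene maximum of 4000, 1 without the clusters mostly from 1 library and 7 at a minimum of 5 UMIs. In Car4-negative cells it was 1, but 2 at a mitochondrial maximum of 10%, 2 at Leiden resolution 1.5, 2 when, for each gene, the cell holding most of its UMIs was left out of both libraries, 3 in cells chosen by 3 endothelial markers, 4 at 5 UMIs and 4 with the Car4-led cluster as the split. The cause was not tested, apart from the UMI minimum, which sets how many genes are read. The single clusters, the Car4-led split and the clusters led by Scgb1a1 or Ccl21a (lymphatic-like) counted as endothelial were chosen after seeing the data. The Bnip3l share of cells, 6.98 points higher at 1000 UMIs, was -13.8 (-26.9 to 0.61) at 2000. That of Ddit4, 8.47, was 1.44 (-4.16 to 5.37) at 500 and 4.40 (-3.64 to 10.2) at 2000, that of Bnip3, 10.95, was 3.95 (-2.49 to 8.91) and 27.2 (16.6 to 35.6), and that of Ndrg1, 5.82, was 2.00 (-3.00 to 5.56) and 10.8 (3.98 to 16.8). Levels under about 20 UMIs are limited by depth.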

Other observations

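Bnip3l, whose product clears mitochondria from maturing red blood cells, was the only 1 of the 10 genes counted in the left-out barcodes with over 50% haemoglobin UMIs. It had 47 UMIs in 28 Normoxia barcodes and 17 in 14 Hypoxia barcodes, or 393 and 254 CPM, and the other 9 genes had 0.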
